A study of Arabidopsis thaliana with 24 samples.

Results

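In Arabidopsis seedlings given 150 mM NaCl for 15 min, 297 of the 38088 genes in the deposited table gained total RNA without a matching gain of polysomal RNA in the wild type. They were chosen from the 12 Col-0 libraries by group means of log2(FPKM + 1), where FPKM is fragments per kilobase of transcript, scaled to library size. Total RNA had to be at least 0.8 higher at 15 min (T15) than at 0 min (T0). The change in polysomal RNA minus the change in total RNA, called polysome association here, had to be -0.7 or lower, and the mean of Col-0 total RNA at T15 had to reach 5 FPKM. Genes of the chloroplast and mitochondrial genomes and 3 nuclear genes named in the rule were left out. The Col-0 changes therefore chose the genes and are given below as a description, with no test. The 12 libraries of the mutant dcp5-1 were not used in the choice, and the tests below are on those libraries.

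Of the 297 genes, 245 were protein-coding, 34 were long non-coding RNA genes and 18 were other RNA genes or pseudogenes. Transcripts of at least 300 nt belonged to 254 of them, and 43 were shorter, a length at which FPKM is unreliable. Of the protein-coding ones, 237 had a transcript that long, and these are called the members from here on. The filter for testing (1 FPKM in at least 3 libraries) removed none of those 237, and 235 of them reached 1 FPKM in all 24 libraries. Of the whole 297, 287 were tested, 5 of them only through the Col-0 total RNA libraries at T15.

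Messengers under translation carry several ribosomes at once, and such polysomes sink deeper in a sucrose gradient than free messengers. The share of a messenger found there is a common measure of how much of it is being translated. Polysome association here is not that share. It compares FPKM values scaled to library size, so each change is relative to the other RNA of its libraries. Most plastid proteins are encoded in the nucleus, translated in the cytosol and imported, and proteins of the secretory pathway are made on ribosomes at the endoplasmic reticulum. DCP5 is a cytoplasmic protein of processing bodies that takes part in removing the 5' cap of messengers and in holding messengers out of translation.

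The wild type was Col-0 and the mutant dcp5-1, an allele of DCP5. Seedlings were 5 days old, rested in liquid medium for 30 min, and then stood in the same medium with NaCl for 0 or 15 min. Total RNA came from the lysate, and polysomal RNA from the mixed polysome fractions of a sucrose gradient. The 2 genotypes, 2 times and 2 fractions gave 8 groups of 3 libraries. All groups were whole seedlings, so fewer cells of a type and less RNA per cell cannot be told apart. No group spent 15 min without NaCl, so the salt cannot be told apart from transfer or elapsed time. The labels do not say that the 3 samples of a group were separate cultures, and the p-values may then measure technical spread only.

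Judged by the steps between low values, a library held 13720000 to 17880000 fragments, a figure that rests on subtracting 200 nt from each transcript length. DCP5 itself lay between 12.96 and 21.5 FPKM in the dcp5-1 libraries and between 48.5 and 92.3 FPKM in those of Col-0. No label defines the columns marked IP, and they were read as polysomal RNA. If they hold total RNA instead, every sign of polysome association reverses. Sums of tissue markers differed between times. The 6 shoot markers, among them the member RCA, summed to between 27018 and 32753 FPKM in Col-0 total RNA at T0 and to between 23520 and 24178 at T15. They did not move together there. From T0 to T15, Col-0 means rose for RCA (1796 to 5042) and LHCB6 (3903 to 5051). Means fell for RBCS2B (12765 to 7230), CAB1 (7873 to 4957) and CAB3 (2834 to 1612). In dcp5-1 total RNA the shoot marker sum was lower at T0, between 15677 and 17348, than at T15, between 21111 and 22469. Most of that difference came from RCA, with means of 1208 FPKM at T0 and 4497 at T15, and from LHCB6, with 2171 and 4037. RBCS2B (7140 and 7345), CAB1 (4658 and 4747) and CAB3 (1107 and 1273) differed less. RBCS1A, which encodes a Rubisco small subunit, was listed at 0 in every library. The 4 root markers summed to between 66.7 and 71.1 FPKM at T0 and 60.1 and 64.1 at T15 in dcp5-1 total RNA, with NRT2.1 near 0, and the 5 embryo and seed markers to between 3.41 and 4.61 and between 5.37 and 6.18. In Col-0 total RNA the root sum went from between 85.7 and 119.8 FPKM to between 55.3 and 59.6, and the embryo and seed sum from between 22.0 and 25.2 FPKM to between 10.7 and 13.2. The part of these differences in the results was not tested.

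The 250 bases before the annotated start of 4 members are shown because these genes had some of the 10 largest Col-0 changes in total RNA and moved together in dcp5-1. They were read from the RefSeq TAIR10.1 genome, 5′ to 3′ on the gene's strand, with matches to 10 searched motifs in capitals. RCA lies on the minus strand of chromosome 2 and its upstream bases at chr2:16573693-16573942, VAR2 on the plus strand at chr2:13174029-13174278, HCF173 on the plus strand at chr1:5722641-5722890, and FER on the minus strand at chr3:19120950-19121199.
RCA: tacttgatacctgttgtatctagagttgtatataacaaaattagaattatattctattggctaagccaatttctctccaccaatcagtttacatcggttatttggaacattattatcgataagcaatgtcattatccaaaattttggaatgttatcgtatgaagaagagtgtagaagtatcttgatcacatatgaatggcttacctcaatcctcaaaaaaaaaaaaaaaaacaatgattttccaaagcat
VAR2: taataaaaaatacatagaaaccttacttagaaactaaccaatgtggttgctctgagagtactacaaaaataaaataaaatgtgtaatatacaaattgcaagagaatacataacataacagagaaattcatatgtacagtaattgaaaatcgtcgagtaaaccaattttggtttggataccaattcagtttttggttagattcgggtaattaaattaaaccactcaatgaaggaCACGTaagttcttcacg
HCF173: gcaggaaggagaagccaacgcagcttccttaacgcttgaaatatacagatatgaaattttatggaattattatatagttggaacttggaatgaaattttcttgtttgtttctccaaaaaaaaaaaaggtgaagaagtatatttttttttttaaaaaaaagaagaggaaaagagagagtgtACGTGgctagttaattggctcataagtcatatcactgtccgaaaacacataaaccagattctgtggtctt
FER: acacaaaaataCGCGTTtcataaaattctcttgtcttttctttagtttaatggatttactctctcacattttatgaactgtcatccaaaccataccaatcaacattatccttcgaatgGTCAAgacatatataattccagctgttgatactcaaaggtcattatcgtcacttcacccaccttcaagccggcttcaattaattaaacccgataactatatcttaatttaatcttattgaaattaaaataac

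Both strands were searched for ACGTG, the core of the element of the abscisic acid response, for the G-box CACGTG, the drought element core CCGAC, the W-box core TTGAC and the evening element AAATATCT. They were also searched for CGCGTT, a site of calmodulin-binding activators, the heat shock element GAANNTTC, the telo-box AAACCCTA, the site II element TGGGCC and the TATA box TATAAA. Every CACGTG also holds ACGTG. The windows of VAR2 and HCF173 held ACGTG once each, and no motif stood in the window of RCA. FER held CGCGTT and TTGAC. Over the 237 members, 22.4% of upstream windows held ACGTG, against 23.8% of those of the 19196 other protein-coding genes. The evening element stood in 8.02% against 4.86%, the TATA box in 40.1% against 46.3%, and the site II element in 19.8% against 16.5%. The shares were 44.3% and 44.8% for the W-box core, 10.97% and 12.97% for the drought element core, 8.44% and 7.52% for the G-box, 1.69% and 2.84% for CGCGTT, 10.1% and 9.21% for the heat shock element, and 3.38% and 3.501% for the telo-box. These shares are descriptions of the windows only.

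Total RNA of the members was at its lowest before NaCl and lay nearer to the polysomal level after it. In Col-0 total RNA the median member stood at 12.6, 12.95 and 13.2 FPKM in the 3 libraries at T0 and at 26.7, 27.0 and 27.5 FPKM at T15. In Col-0 polysomal RNA it already stood at 24.9, 25.3 and 26.2 FPKM at T0 and reached 27.8, 28.2 and 28.8 at T15. In Col-0, total RNA at T15 thus lay above polysomal RNA at T0, and in dcp5-1 it lay below. The median member in dcp5-1 total RNA stood at 11.5, 11.6 and 12.02 FPKM at T0 and at 22.2, 22.5 and 22.8 at T15. In dcp5-1 polysomal RNA it stood at 23.9, 24.5 and 24.5 FPKM at T0 and at 28.6, 28.7 and 29.2 at T15. The median of the other protein-coding genes stayed between 9.23 and 10.1 FPKM in all 24 libraries.

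**Figure D1:**
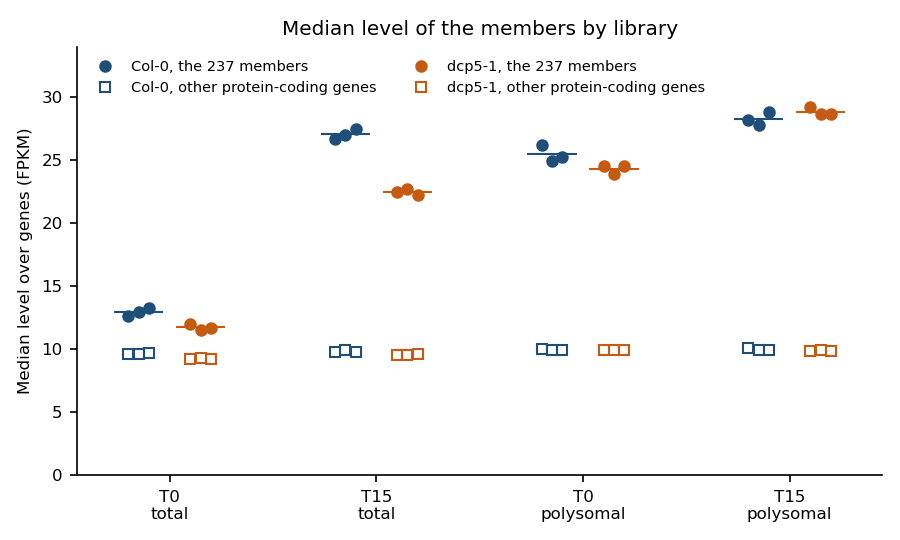
Median FPKM of the 237 members (filled circles) and of the other protein-coding genes tested (open squares) in each of the 24 libraries, by fraction and time, with Col-0 in blue and dcp5-1 in orange. Short lines are means of 3 libraries. Total RNA at T0 stands apart from the other 3 groups in both genotypes.

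In dcp5-1, total RNA of 235 of the 237 members rose from T0 to T15 and none fell (limma on log2(FPKM + 1), adjusted p below 0.05 over 20964 genes). Of all genes tested, 29% rose and 26.8% fell in that comparison. The median change was 0.84 for the members and 0.01 over all genes tested, and it had been 0.96 for the members in Col-0, where the choice fixed it. In 235 members, the lowest of the dcp5-1 total libraries at T15 lay above the highest at T0, as in 32.8% of all genes tested. Counting every one of the 287 genes tested, 248 rose. The 2 members not called were IMPA-9, an importin alpha, and AT2G13965, an uncharacterized gene of 348 nt that lies wholly within an annotated pseudogene. IMPA-9 stood at 3.38, 3.76 and 4.16 FPKM at T0 and 4.83, 4.96 and 3.77 at T15, with overlapping groups. AT2G13965 stood at 7.51, 7.46 and 9.10 FPKM at T0 and 2.67, 2.59 and 7.51 at T15, opposite in direction to Col-0 but with an adjusted p of 0.2.

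Polysomal RNA of the members changed less. It rose for 153 of the 237 and fell for 4 in dcp5-1, against 17.2% and 15.5% of all genes tested. The median change was 0.20, against 0 over all genes. With organelle-encoded genes removed before every library was rescaled to the same sum, 89 rose, where 10.3% of all genes rose and 22.9% fell. That scaling put the median of all genes at 0.05 in dcp5-1 total RNA, -0.07 in polysomal RNA and -0.11 in association. The 4 that fell were BIP2, an endoplasmic reticulum chaperone, BGLU22, a beta-glucosidase, AT4G39960, a DnaJ-type chaperone, and AT3G18680, an amino acid kinase family protein. BIP2 stood at 65.4, 63.7 and 66.3 FPKM in dcp5-1 polysomal RNA at T0 and at 51.3, 56.2 and 53.7 at T15, a change of -0.27 (SE 0.064, adjusted p = 0.0022).

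Polysome association of 224 members fell in dcp5-1 and none rose, where 14% of all genes tested fell and 12.3% rose. The median was -0.64 for the members and -0.0034 for all genes, and with organelle-encoded genes removed -0.77 against -0.11. Under that scaling 21.5% of all genes fell in association and 8.15% rose, and 227 of the 237 members fell. The members began from a high association. The T0 difference below and the changes in total RNA and association all use the dcp5-1 total RNA libraries at T0. Their counts are therefore not independent results. At T0, 226 were called higher in polysomal than in total RNA of dcp5-1 and 1 lower (limma, adjusted p below 0.05). Of all genes tested, 34.9% and 36.3% were so called. The median difference of the members was 0.91. At T15, 148 were called higher and 31 lower, against 33.6% and 32.8% of all genes tested, and the members' median difference was 0.27. In Col-0 those medians were 0.91 and 0.06. The member called lower in polysomal RNA of dcp5-1 at T0 was PTAC12, a protein of the plastid transcription complex. Its difference was -0.23 (SE 0.088, adjusted p = 0.025). By value alone, 231 members lay above 0 at T0 and 6 below.

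**Figure D2:**
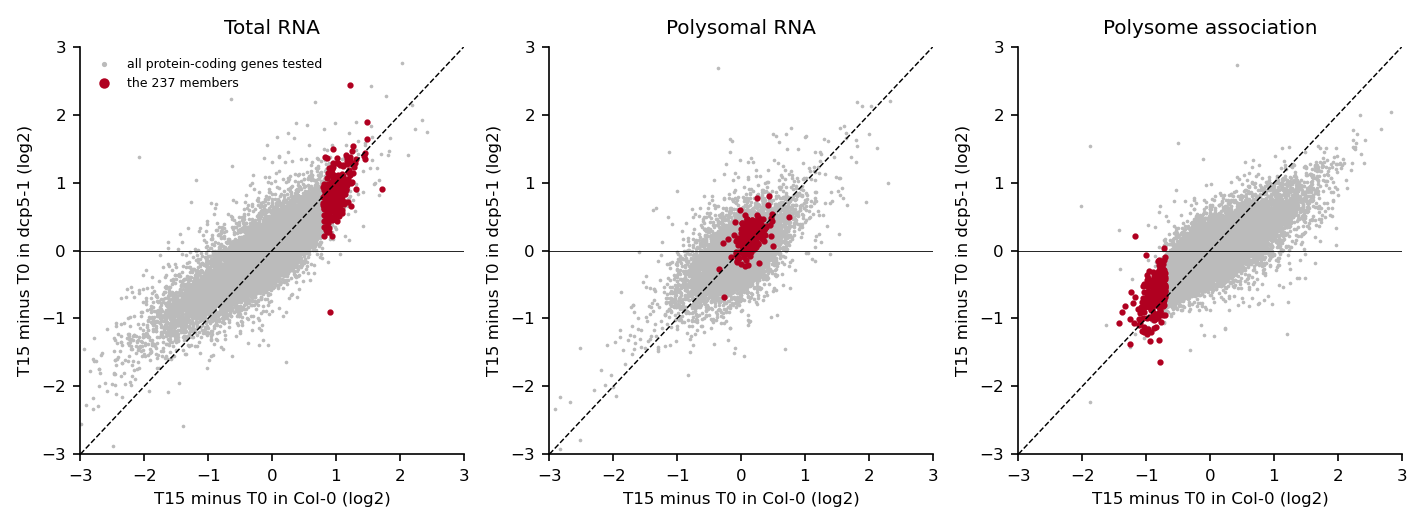
Change from T0 to T15 (log2 of FPKM + 1) in Col-0 on the horizontal and in dcp5-1 on the vertical axis, for total RNA, polysomal RNA and polysome association. Red points are the 237 members and grey points all protein-coding genes tested; the dashed line marks equal change and genes beyond 3 on either axis are not drawn. The sharp edges of the red points along the Col-0 axis are the thresholds of the choice.

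Applied to dcp5-1 alone, the same thresholds gave 203 genes, with 96 on both lists. The shared genes are 32.3% of the Col-0 list and 47.3% of the dcp5-1 list, and the lists share no library. Of the 237 members, 57.8% reached a total RNA change of 0.8 in dcp5-1, where 2.71% of all protein-coding genes tested did, and 41.8% reached an association change of -0.7, where 1.35% did. The change in total RNA was smaller in dcp5-1 than in Col-0 for 175 of the 237, and the association change was less negative for 188. These counts are descriptions, since the Col-0 values chose the genes.

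The choice itself depended on the scaling. With organelle-encoded genes removed first, the median of all genes in Col-0 moved to 0.24 in total RNA and to -0.21 in association, and 1156 genes met the rule, all of the 297 among them. After correction for length and GC content, 181 genes met it, 85 of them among the 297. Values on either side of each threshold lay close together. By total RNA change, AT1G77260 and RAN1 lay just inside at 0.80 and AT5G20000 and WAT1 just outside at 0.79. By association, PI-4KBETA1 and AT4G13840 lay just inside at -0.70 and CYP38 and AT1G14650 just outside, also at -0.70. By level, RKF1 at 5.30 and GYRA at 5.40 FPKM lay inside, and HSFA6B at 4.57 and AT1G50750 at 4.05 FPKM outside.

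To describe the members by function, 148 of them were sorted into 15 role groups from their RefSeq product names and general knowledge, after their values had been seen. The other 89 have no group. The counts below describe those groups and test nothing about them, and for each count the backgrounds are those given above.

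The photosynthesis group held 10 members, all of which rose in dcp5-1 total RNA (median 1.06) and fell in association (median -0.88), and 8 rose in polysomal RNA. RCA encodes Rubisco activase, which frees Rubisco of inhibitory sugar phosphates. Its total RNA in Col-0 stood at 1600, 1960 and 1828 FPKM at T0 and at 5064, 4935 and 5129 at T15, and its polysomal RNA at 7239, 7185 and 7259 and at 7964, 8753 and 8972. In dcp5-1 its total RNA stood at 1202, 1275 and 1147 FPKM at T0 and at 4412, 4550 and 4528 at T15. The groups of dcp5-1 did not overlap, and the change was 1.90 (SE 0.061, adjusted p = 2.6e-16). RCA polysomal RNA in dcp5-1 stood at 5535, 5521 and 5430 FPKM at T0 and at 7779, 8031 and 7899 at T15, so that association fell by 1.37 (SE 0.086, adjusted p = 2e-10). Of the 237, RCA had the highest mean in Col-0 total RNA at T15.

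HCF173, which is needed to translate the chloroplast messenger of a photosystem II core protein, stood at nearly the same level in both fractions of dcp5-1 at T15. In dcp5-1 total RNA it stood at 61.04, 62.7 and 57.6 FPKM at T0 and at 164, 166 and 165 at T15. In dcp5-1 polysomal RNA it stood at 132, 129.9 and 132 FPKM at T0 and at 167, 171 and 172 at T15. The difference between the fractions was 1.11 at T0 and 0.045 at T15 (adjusted p = 0.33). A non-coding gene on the opposite strand of HCF173, AT1G05253, is also among the 297 genes, and without stated strandedness their reads cannot be told apart. FNR1, a ferredoxin-NADP reductase of the thylakoid, stood in dcp5-1 total RNA at 288, 284 and 266 FPKM at T0 and at 671, 687 and 705 at T15. Its polysomal RNA there stood at 416, 432 and 431 and at 507, 526 and 542 FPKM, so that total RNA at T15 was above polysomal RNA.

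The plastid proteases, import and chaperone group held 17 members. All 17 rose in dcp5-1 total RNA (median 0.87) and fell in association (median -0.81), while in polysomal RNA 9 rose and 1 fell. VAR2, an FtsH protease that clears damaged photosystem II proteins from the thylakoid membrane, had the third largest change among the 237 in dcp5-1 total RNA. Its total RNA there stood at 46.9, 47.2 and 48.8 FPKM at T0 and at 150.3, 153 and 149.5 at T15, a change of 1.64 (SE 0.035, adjusted p = 3.6e-19). Its polysomal RNA stood at 234, 240.03 and 242 FPKM at T0 and at 331, 334 and 336 at T15. TIC40, part of the import machinery of the inner envelope, rose in total RNA from 32.1, 32.1 and 30.4 FPKM to 82.2, 75.3 and 70.1. TIC40 polysomal RNA overlapped between times, at 77.8, 77.1 and 74.4 FPKM at T0 and 76.8, 81.5 and 76.2 at T15 (adjusted p = 0.67). The group also held CPN60B of the plastid chaperonin, CR88, a plastid HSP90, and the Clp protease subunits CLPP3, CLPP5 and CLPR1, whose dcp5-1 changes in total RNA were 1.38, 1.29, 0.65, 0.92 and 0.81.

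The pigment and isoprenoid group held 12 members, and all 12 rose in dcp5-1 total RNA (median 1.13) and fell in association (median -0.82). ZDS, zeta-carotene desaturase of carotenoid synthesis, stood in dcp5-1 total RNA at 23.8, 22.5 and 22.8 FPKM at T0 and at 58.1, 61.8 and 59.5 at T15. CLA1, the first enzyme of the plastid isoprenoid pathway, stood at 62.4, 59.7 and 62.6 and at 151, 146 and 146 FPKM. Neither overlapped between times. The group also held ALB1, a subunit of magnesium chelatase in chlorophyll synthesis, and PPH and NYC1 of chlorophyll breakdown, with dcp5-1 changes in total RNA of 0.91, 1.15 and 0.68.

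The plastid gene expression group was the most numerous, with 21 members. All 21 rose in dcp5-1 total RNA (median 0.88) and fell in association (median -0.74), and 9 rose in polysomal RNA. It held the sigma factors SIG2 and SIGF of the plastid RNA polymerase, the transcription complex proteins PTAC12 and PTAC17, the translation factors FUG1 and SVR3, the aminoacyl-tRNA synthetases OVA1, OVA2 and ERS, and the RNA-binding protein CRB. PTAC17 stood in dcp5-1 total RNA at 6.51, 6.31 and 5.84 FPKM at T0 and at 18.3, 19.5 and 20.003 at T15, and in Col-0 total RNA at 4.63, 5.16 and 3.80 and at 10.2, 8.65 and 10.1. CRB stood in dcp5-1 total RNA at 167, 168 and 166 FPKM at T0 and at 373, 381 and 379 at T15. SIG2 changed by 0.76 and SVR3 by 1.21 there. The plastid division group added FTSZ1-1, FTSZ2-2, ARC5 and MSL2, and all 4 rose in total RNA and fell in association.

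Among enzymes of starch and photorespiration, all 5 rose in dcp5-1 total RNA and fell in association. SHM1, the mitochondrial serine hydroxymethyltransferase of photorespiration, stood at 408, 406 and 413 FPKM in dcp5-1 total RNA at T0 and at 1013, 971 and 972 at T15. DBE1, annotated as a debranching enzyme, was among the 6 smallest dcp5-1 changes, at 9.06, 8.50 and 8.44 FPKM at T0 and 11.2, 10.4 and 10.6 at T15, a change of 0.28 (SE 0.063, adjusted p = 0.00067). In Col-0 total RNA it stood at 6.69, 5.81 and 7.40 and at 13.03, 12.6 and 12.97. The 6 mitochondrial enzymes, among them E1 ALPHA and mtLPD1 of pyruvate oxidation and NAD-ME1, a malic enzyme, all rose in dcp5-1 total RNA and fell in association.

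**Figure D3:**
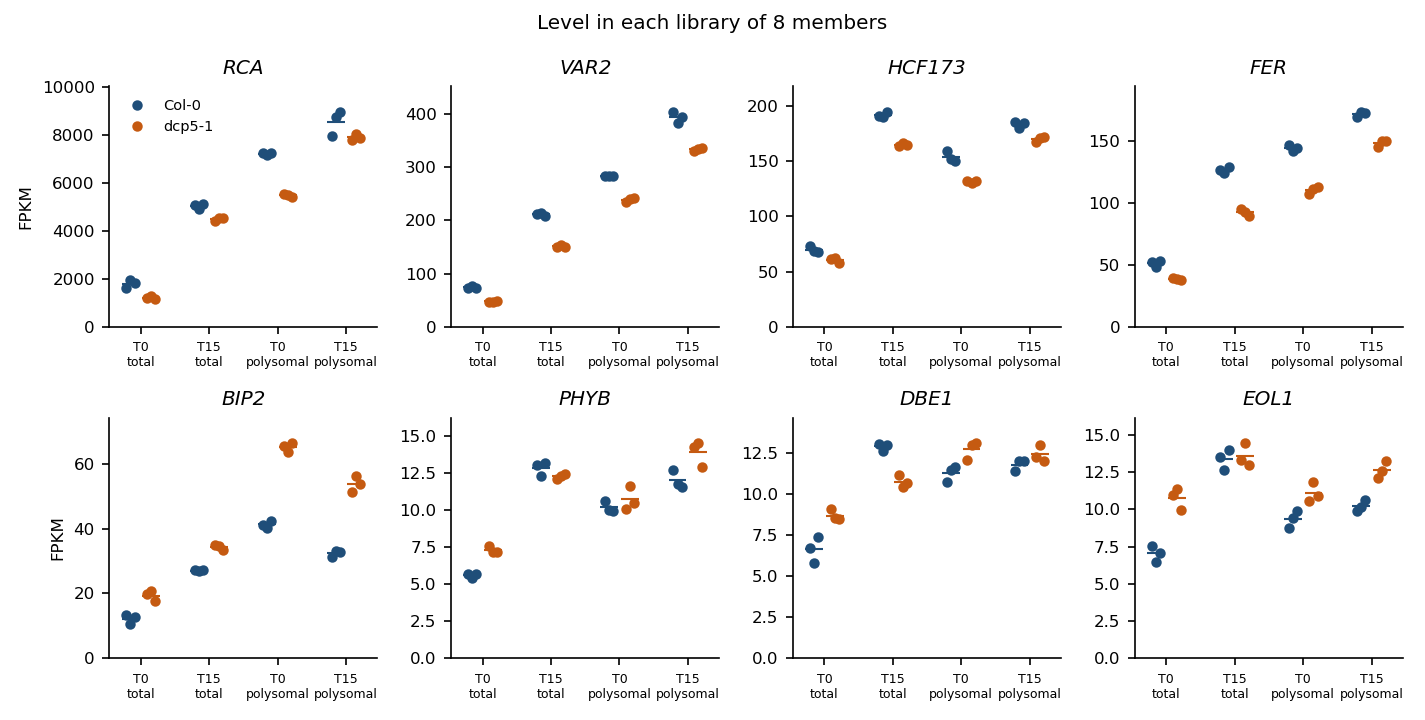
FPKM in each library of 8 members, with Col-0 in blue and dcp5-1 in orange, by time and fraction. Lines are means of 3 libraries, and each vertical axis starts at 0. RCA, VAR2, HCF173 and FER share the pattern of low total RNA at T0, while total RNA of DBE1 and EOL1 differs less between times in dcp5-1 than in Col-0.

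The endoplasmic reticulum group held 8 members for folding and glycosylation, and all 8 rose in dcp5-1 total RNA (median 0.82) and fell in association (median -0.81). BIP2 and BIP1 are HSP70 chaperones of the lumen, with nearly identical sequences between which reads may be split. BIP2 had the most negative Col-0 association change of the 237, with total RNA at 13.5, 10.6 and 12.7 FPKM at T0 and 27.2, 26.8 and 27.1 at T15 and polysomal RNA at 41.3, 40.2 and 42.5 and 31.1, 33.02 and 32.9. In dcp5-1 total RNA BIP2 stood at 19.8, 20.7 and 17.6 FPKM at T0 and at 34.9, 34.7 and 33.5 at T15, and its association fell by 1.07 (SE 0.091, adjusted p = 1.4e-08). SHD, the HSP90 of the endoplasmic reticulum, stood in dcp5-1 polysomal RNA at 96.8, 100.1 and 105 FPKM at T0 and 95.3, 101 and 97.3 at T15, and in total RNA at 24.7, 25.2 and 25.99 and 49.4, 48.8 and 50.01. CRT1a, a calreticulin, and STT3A and RSW3 of protein glycosylation changed in dcp5-1 total RNA by 0.71, 0.73 and 0.88.

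Vesicle traffic gave 13 members, subunits of the clathrin adaptors, of the coatomer and of tethering complexes among them. All 13 rose in dcp5-1 total RNA (median 0.84), 11 rose in polysomal RNA and 13 fell in association (median -0.58). AT2G21390, the alpha subunit of coatomer, had the largest polysomal change of the group in dcp5-1, 0.67. SEC5A of the exocyst and VPS34, a phosphatidylinositol kinase of sorting to the vacuole, changed in total RNA by 0.70 and 0.76. The 13 cell wall and cuticle members all rose in dcp5-1 total RNA (median 0.72) and 11 fell in association. LAC11, a laccase of lignin formation, stood in dcp5-1 total RNA at 11.2, 10.97 and 10.1 FPKM at T0 and at 20.99, 22.2 and 25.4 at T15. GSL10, a callose synthase-like protein with one of the longest transcripts (6149 nt), stood at 5.10, 4.89 and 4.94 and at 7.76, 8.03 and 7.46 FPKM, and its association change of -0.16 did not pass the test (adjusted p = 0.29).

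Receptors and surface or immune signalling gave 10 members, all of which rose in dcp5-1 total RNA, and 9 fell in association. FER, the FERONIA receptor kinase that senses cell wall integrity and is needed for growth under salt, stood in Col-0 total RNA at 52.6, 48.2 and 52.98 FPKM at T0 and at 127, 124 and 129 at T15. In dcp5-1 total RNA FER stood at 39.5, 38.6 and 38.1 FPKM at T0 and at 95.02, 92.8 and 89.7 at T15, a change of 1.23 (SE 0.039, adjusted p = 2.5e-16). In dcp5-1 polysomal RNA FER stood at 107, 111 and 113 and at 145, 149.8 and 149.7 FPKM. ER, the ERECTA receptor kinase of stem and stomatal patterning, and PEPR1, a receptor of danger peptides, changed in dcp5-1 total RNA by 0.91 and 0.82. The ethylene group held RAN1, which loads copper into the ethylene receptors, the negative regulator CTR1, the transcription factor EIN3 and EOL1, a relative of the regulator of ethylene synthesis ETO1. All 4 rose in dcp5-1 total RNA and 3 fell in association, with EOL1 at -0.14 (adjusted p = 0.3).

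The light perception group held the red light receptor PHYB, its partner PIF3 and the blue light receptor PHOT2. All 3 rose in dcp5-1 total RNA and fell in association. PHYB stood in dcp5-1 total RNA at 7.56, 7.20 and 7.19 FPKM at T0 and at 12.1, 12.3 and 12.4 at T15. PHOT2 polysomal RNA in Col-0 was lower at T15, at 52.1, 49.9 and 52.5 FPKM, than at T0, at 65.3, 62.1 and 61.6. In dcp5-1 it was higher at T15, at 52.5, 55.2 and 54.4 FPKM, than at T0, at 48.6, 49.4 and 51.2, with an adjusted p of 0.13. Its longest annotated transcript overlaps a gene on the other strand. PHOT2 was 1 of 5 members of the 237 whose polysomal libraries did not overlap between times in either genotype and lay in opposite directions. Among all genes tested the share was larger, 3.13%. Membrane transport gave 7 members, which all rose in dcp5-1 total RNA and fell in association. HA1, a plasma membrane proton pump, changed there by 1.13 and EIR1, an auxin efflux carrier of roots, by 1.36. EIR1 stood in dcp5-1 total RNA at 1.996, 2.08 and 2.16 FPKM at T0 and at 6.94, 6.64 and 7.15 at T15.

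Chromatin, transcription and nuclear RNA gave 15 members with the group medians nearest to 0 in dcp5-1, 0.55 in total RNA and -0.35 in association. Their median transcript was 3595 nt, against 2054 nt in the photosynthesis group. The part of length in this ranking was not tested. Of these 15, 14 rose in total RNA and 11 fell in association. AT4G16150, a calmodulin-binding transcription activator, changed by 0.91 in dcp5-1 total RNA and XRN3, a nuclear exoribonuclease, by 0.86. AT1G10390, a nucleoporin, stood in dcp5-1 total RNA at 7.06, 7.10 and 6.83 FPKM at T0 and at 10.03, 10.2 and 9.20 at T15, and in polysomal RNA at 17.6, 17.9 and 17.6 and at 24.8, 25.1 and 24.9. Both fractions rose there, and its association change was 0.039 (SE 0.085, adjusted p = 0.79). SAP130a and SAP130b, subunits of a splicing factor, are near-identical neighbours between which reads may be split.

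**Figure D4:**
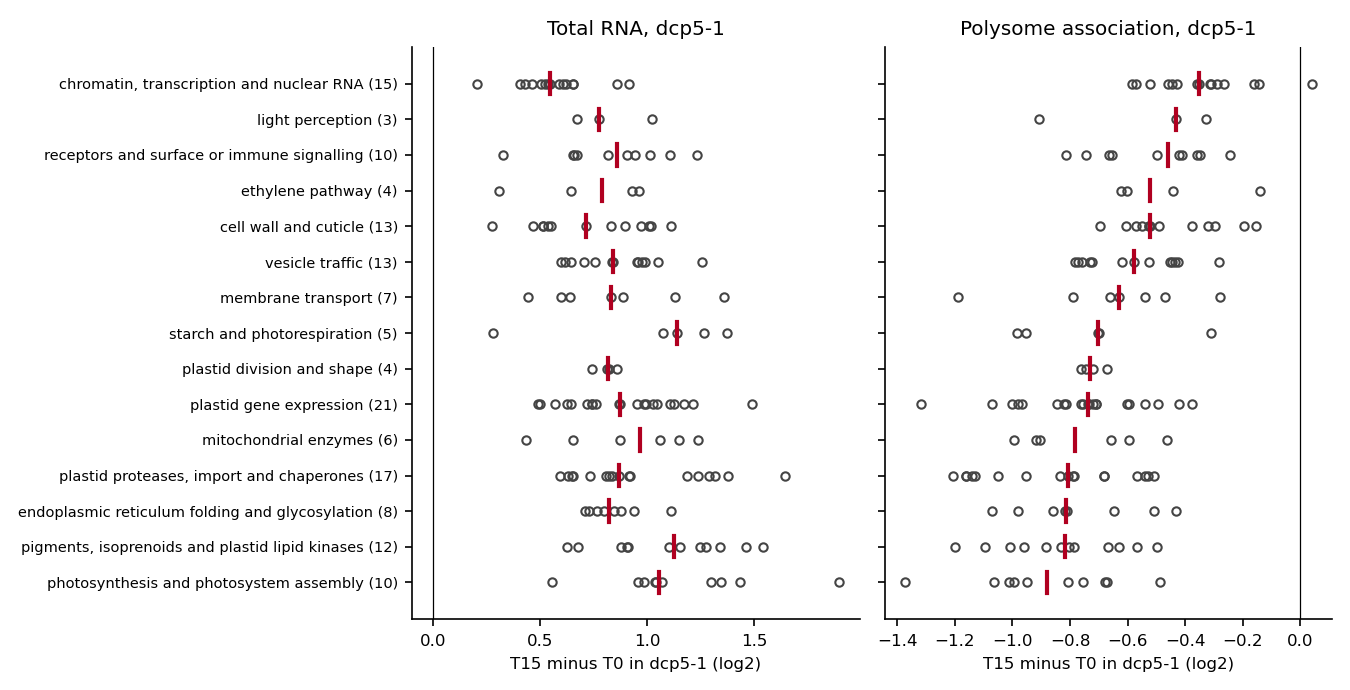
Change from T0 to T15 in dcp5-1 (log2 of FPKM + 1) of each member in the 15 role groups, in total RNA and in polysome association. Each open circle is 1 member, the red bar is the group median and the number of members stands in brackets. Photosynthesis and photosystem assembly has the most negative median association and chromatin, transcription and nuclear RNA the least negative. Their median transcripts are 2054 and 3595 nt long.

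Outside the role groups, AT4G22505, a lipid-transfer-like protein, had the largest change of a member in dcp5-1 total RNA. It stood at 11.2, 8.37 and 10.03 FPKM at T0 and at 61.3, 59.8 and 52.4 at T15, a change of 2.44 (SE 0.12), but it lies wholly within a gene on the opposite strand. AT3G32980, a peroxidase, stood higher in dcp5-1 total RNA, with no overlap, at 151, 142 and 141 FPKM at T0 and 172, 171 and 162 at T15, than in Col-0, at 50.8, 54.9 and 55.5 and 98.6, 108 and 104. Its association change in dcp5-1 did not pass the test (-0.062, adjusted p = 0.54). In all, 13 members did not pass the association test in dcp5-1.

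Of 17 gene lists written with earlier results of these data known, 10 held at least 1 member. Of all genes tested, 29% rose and 26.8% fell in dcp5-1 total RNA, and 14% fell and 12.3% rose in association. In dcp5-1 polysomal RNA, 17.2% rose and 15.5% fell. The nuclear photosynthesis list had 26 genes tested, of which 21 rose and 1 fell in dcp5-1 total RNA, and 16 fell and 3 rose in association. In polysomal RNA, 21 of the 26 also rose and 0 fell. This list held 4 members, ALB1, VAR2, RCA and FNR1. The list of ABC transporters and proton pumps had 24 genes tested. Of these, 20 rose and 0 fell in dcp5-1 total RNA, 17 rose and 1 fell in polysomal RNA, and 12 fell and 2 rose in association. It held ABCG12, HA1 and ABCB1. Of 27 light signalling genes, 18 rose and 4 fell in total RNA, and 11 fell and 1 rose in association. In polysomal RNA, 9 of the 27 rose and 3 fell. The lists of the response to abscisic acid and osmotic stress, glucosinolate synthesis, messenger decay, translation factors and ribosome, circadian clock, starch, sugar and nitrogen metabolism, and jasmonate held no member. In the osmotic stress list, 15 of 30 genes rose in dcp5-1 total RNA, and 5 fell, and in association 8 fell and 1 rose. In polysomal RNA, 13 of the 30 rose and 6 fell.

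The members were long and rich in exons. Their median transcript was 2511 nt, against 1694 nt for the other 19197 protein-coding genes tested, their median protein 626 against 359 residues and their median exon number 10 against 4. GC content was 42.4% against 41.3%. Length moved with the change among all genes, also in Col-0, whose values chose the members. Below 1000 nt the other genes had Col-0 medians of -0.66 in total RNA and 0.55 in association. From 4000 nt up these were 0.41 and -0.29. The part of this Col-0 trend in the length of the members was not tested. In dcp5-1, the members were compared with others of like length. From 1000 to 1999 nt, 61 members had a median dcp5-1 total RNA change of 0.88, against -0.03 for the others. From 2000 to 2999 nt it was 0.87 against 0.17, from 3000 to 3999 nt 0.80 against 0.22, and from 4000 nt up 0.70 against 0.23. Association medians ran from -0.71 to -0.45 for the members in those bins and from -0.13 to 0.02 for the others. Only 2 members were shorter than 1000 nt. Their dcp5-1 medians were 0.0042 in total RNA and -0.14 in association, against -0.36 and 0.24 for the others. After correction for length and GC content, 228 of the 237 rose in dcp5-1 total RNA, where 26.1% of all genes rose, and 201 fell in association, where 11.4% fell.

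**Figure D5:**
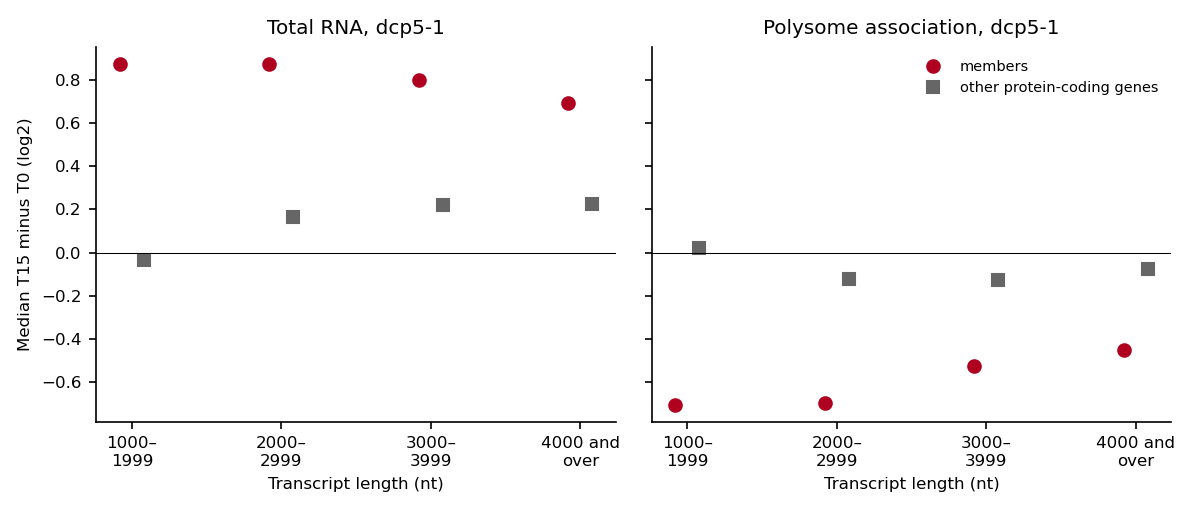
Median change from T0 to T15 in dcp5-1 (log2 of FPKM + 1) for members (red circles) and other protein-coding genes (grey squares) in 4 bins of transcript length, in total RNA and in polysome association. Members lie above the others in total RNA and below them in association in each of the 4 bins.

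RefSeq notes state a location for 171 members. A chloroplast or plastid location was noted for 88 of them (51.5%), against 24.6% of 9629 other genes with a stated location. In dcp5-1, 87 of the 88 rose in total RNA and 85 fell in association, with medians of 0.90 and -0.76. Of the 2366 other plastid-noted genes, 946 rose and 557 fell in association, with medians of 0.08 and -0.05. Over all genes tested, 29% rose in total RNA and 14% fell in association. Golgi or vesicle coat was noted for 6.43% against 1.71%, endoplasmic reticulum for 5.26% against 2.84% and mitochondrion for 10.5% against 7.64%. The endomembrane system was noted for 11.1% against 20.6%, with 10.5% against 12.9% for the nucleus and 16.4% against 16.9% for the plasma membrane. These shares were not tested. Members noted for these other locations also rose in dcp5-1 total RNA and fell in association by median. Total RNA and association medians were 0.97 and -0.76 for Golgi or coat, 0.88 and -0.82 for endoplasmic reticulum and 0.90 and -0.74 for mitochondrion. They were 0.84 and -0.55 for the endomembrane system, 0.65 and -0.49 for the nucleus and 0.81 and -0.62 for the plasma membrane. No member of the 171 was noted for the cytosolic ribosome, against 2.26% of the others. Among the 67 members with a stated location that met all thresholds in dcp5-1 too, 65.7% were plastid-noted, and among the 104 that did not, 42.3%.

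Of the 34 non-coding RNA genes, 16 had transcripts of at least 300 nt, and each of the 16 overlapped a gene on the opposite strand. Reads from those partners cannot be told apart without a stated strand setting. Among the 237 members, 85 overlapped another annotated gene, as RCA, VAR2, HCF173, FNR1 and ZDS do over part of their length. Of the 152 that did not, 151 rose in dcp5-1 total RNA, 96 rose in polysomal RNA and 144 fell in association. The shares over all genes tested were 29%, 17.2% and 14%.

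Between genotypes, the median member was lower in dcp5-1 than in Col-0 by 0.20 in total RNA at T15, on the log2 scale, and the median of the other genes by 0.02. At T0 the medians were -0.04 in total RNA for both sets, and in polysomal RNA -0.06 for the members and -0.01 for the others. In polysomal RNA at T15 they were 0.0026 and -0.012. These comparisons hold the Col-0 libraries that chose the genes and were not tested.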

How the data were processed

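Total and polysomal RNA of seedlings were sequenced in 24 libraries. The authors deposited 1 table of FPKM values for 38088 genes, with 1 further line that held no values. The submitters' processing notes name Bowtie and TAIR10; for the counter, the strand setting and further scaling the sources used here say nothing. Of the gene IDs, 99.2% matched RefSeq TAIR10.1, which gave names, lengths, locations and sequences.

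Changes are differences of mean log2(FPKM + 1). Since the values are FPKM and not counts, limma 3.58.1 (R 4.3.3, statmod 1.5.0; trend and robust options) was fitted to all 8 groups at once, over the 20964 genes that reached 1 FPKM in 3 or more libraries, with Benjamini-Hochberg adjustment and a threshold of 0.05. The method was checked on simulated data with independent libraries and few changed genes. Such data cannot show how it behaves where many genes change or replicates are technical. Tests are two-sided. Python 3.11.15, numpy 2.4.6, pandas 2.3.3 and matplotlib 3.10.9 did the rest.

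The genes, lists and tests were chosen with earlier results of these data known. Named genes were the 10 largest Col-0 total changes, the 8 most negative Col-0 association changes, the 6 largest and 6 smallest dcp5-1 total changes, the 4 most and 4 least negative dcp5-1 association changes, the 4 highest levels, the 4 longest transcripts, members on a list, genes at the thresholds and DCP5. Other names were taken from the role groups, after their values were seen. Alternatives were the pseudocount (0.1), the filter, 2 scalings, a correction of each change for transcript length and GC content (spline terms with 6 and 4 degrees of freedom), a fit of dcp5-1 alone, a replicate block and leaving out each library.

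Precision is limited by 3 libraries a group and by depth. No label ties column numbers to sample replicate numbers, so libraries are listed in column order within a group.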

Additional observations from a re-analysis of the deposited data

Results flagged for a closer look

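In polysomal RNA, 5 of the 237 members had values in opposite directions in Col-0 and dcp5-1. In each genotype, every T15 library of these 5 lay on 1 side of every T0 library. The share among all genes tested was larger, 3.13%, so the pattern was not more frequent among the members. None of the 5 differences between genotypes was tested, because Col-0 values chose the genes. The T15 minus T0 value of PHOT2 was -0.29 in Col-0 and 0.12 in dcp5-1, a difference of 0.40, and its longest transcript overlaps a gene on the other strand. For EIR1 the values were -0.20 and 0.17, a difference of 0.37. AT5G25100, an endomembrane protein of the EMP70 family, had -0.08 and 0.14, a difference of 0.22. AT3G32980, a peroxidase, had -0.07 and 0.15, a difference of 0.22. WTF1, a protein needed for splicing of chloroplast introns, had 0.14 and -0.08, a difference of -0.22.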

How the results depend on the processing

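The number of genes meeting the rule was 425 with a pseudocount of 0.1 and 283 with median-of-ratios scaling, but 1156 with organelle-encoded genes removed and 181 after correction for length and GC content. Leaving out 1 Col-0 library gave 268 to 347 genes, of which 238 to 289 were among the 297. Members called in dcp5-1 numbered 228 to 235 in total RNA and 201 to 227 in association over the settings other than left-out libraries. In polysomal RNA they numbered 89 with organelle-encoded genes removed, 103 after that correction and 149 to 159 otherwise. Leaving out 1 dcp5-1 library gave 235 to 236 in total RNA, 126 to 153 in polysomal RNA and 216 to 221 in association. The median dcp5-1 change in total RNA was 0.91 with the pseudocount of 0.1, 0.89 with organelle-encoded genes removed and 0.65 after that correction. In polysomal RNA it was 0.12 with organelle-encoded genes removed and 0.13 after that correction. In association it was -0.69, -0.77 and -0.53 under those 3 settings. The cause of these shifts was not tested. Over 159 named members no change reversed in direction among calls. With organelle-encoded genes removed, 39 polysomal calls were lost and 5 gained, and 3 association calls gained. After the length and GC correction, 29 polysomal, 16 association and 6 total RNA calls were lost and 4 polysomal calls gained. With the replicate block 235, 153 and 224 members were called in total RNA, polysomal RNA and association. Under it 3 of the 159 named members changed their call in polysomal RNA, and none in total RNA or association. Correlations did not settle whether column numbers pair the libraries: 5 of 84 same-number correlations were above 0.1, and 0 of the 12 between total and polysomal RNA of the same genotype and time. Number 0 of Col-0 total RNA at T0 and of Col-0 polysomal RNA at T15 had the highest, 0.42. Number 0 of Col-0 total RNA at T0 and at T15 had the lowest, -0.22. Other values above 0.1 were 0.31, 0.22 and 0.20 for number 0 and 0.24 for number 1. Whether the libraries of number 0 share an effect was not tested. Low correlations cannot show that same-number libraries had separate lysates, and no label says so.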
